A study of Mus musculus with 72 samples.

Results

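The difference between offspring of FED and CR20 dams in the response of epididymal white adipose tissue (eWAT) to a high fat diet (HFD) was measured in 24 libraries of the 72 in the series. These are all the eWAT libraries, with 6 male mice in each of 4 groups, and no library was left out. The mice were FVB.129P2 offspring of dams that ate freely (FED) or received 20% less food than a paired FED dam from late gestation to weaning (CR20). At 8 weeks of age they were moved to the CTRL diet, with 10% fat, or to the HFD, with 45%. They stayed on it for 10 weeks, the shorter of the durations in the labels. The pups of each dam were divided between the diets, but the labels do not tie a mouse to its dam, so littermates may stand in both diet groups of a maternal group. Littermates may also share a group, and the number of dams of these mice is not stated. Each mouse was treated as independent, although the restriction was applied to dams. The p-values therefore measure the spread between these mice and not between dams, and they may be too small.

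Each gene has an interaction, which is its log2 fold change (log2FC) on the HFD in offspring of CR20 dams, CR20-HFD minus CR20-CTRL, after that in offspring of FED dams, FED-HFD minus FED-CTRL, was subtracted. A negative interaction means a smaller rise, or a larger fall, on the HFD in the offspring of CR20 dams. It does not say in which of the 4 groups the difference lay, so the group levels are given beside it. Levels are log2 CPM, counts scaled to the size of each library, which compare a gene between mice and not one gene with another.

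White adipose tissue holds adipocytes, which store triglyceride, together with vessels, fibroblastic progenitors and immune cells. In obese mice, macrophages gather around dying adipocytes in this fat pad and take up their lipid in lysosomes. Such lipid-associated macrophages are known for the receptor Trem2 and the membrane protein Gpnmb, whereas resident macrophages of lean fat carry Lyve1, Timd4 and Cd163. Macrophages detect antibody through Fc receptors and microbial or cell debris through Toll-like receptors, and both kinds of receptor act through kinases shared by many blood cells. In tissue RNA, more cells of a type and more RNA per cell cannot be told apart.

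Total counts of the eWAT libraries ran from 11589675 to 22364963, and 3 counts, taken as the limit of detection for counting error only, came to 0.134 to 0.259 CPM. Adipocyte genes were abundant in every library (summed CPM of 18 identity genes, 18790 to 70547). Some libraries stood apart. FED-HFD mouse 23 had a summed CPM of 10325 over 14 macrophage markers, against 2443 to 4292 in the other FED-HFD mice, and had the lowest adipocyte sum. Transcripts of 124 genes that are abundant in liver summed to 2481 CPM in FED-HFD mouse 10, 2047 in CR20-CTRL mouse 5 and 516 in FED-HFD mouse 13, against at most 238 in the other 21 libraries. The epididymal gene Adam7 had 2682 counts in CR20-CTRL mouse 4, 716 in CR20-CTRL mouse 5, 64 in CR20-HFD mouse 6 and 0 in the others. Of 62 called genes named by the rules for choosing genes, 45 were also called without mouse 23 and 51 without the 3 libraries with liver transcripts. The number was 0 without the 3 libraries with Adam7 counts, and 30 by voom of limma with quality weights. By voom with quality weights, Gpnmb, Trem2, Mmp12, Il7r, Adam8, Cybb and Sel1l3 were among those not called (adjusted p from 0.0678 to 0.203). Cd68, Adgre1, Fcgr3, Lcp1, C5ar1 and Runx1 were among those called by it. Losses without mouse 23 are given beside the genes described in full.

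Of 15964 tested genes, 363 (2.27%) were called in the interaction by edgeR's quasi-likelihood test, at a Benjamini-Hochberg adjusted p of at most 0.055 and an absolute log2FC of at least 1. The interaction was negative for 356 genes (2.23%) and positive for 7 (0.0438%). Among the negative genes were macrophage markers, Fc and Toll-like receptors and the kinases behind them, the NADPH oxidase of phagocytes and lysosomal enzymes, with the highest RNA levels in FED-HFD. Of the called negative genes, 76 belong to at least 1 of 38 gene lists, and 280 to none. The lists share members and were chosen with earlier results of these data known. Counts and ranks of lists are therefore descriptions. An unadjusted p under 0.05 was found for 2903 genes (18.2%), of which 2033 (12.7% of those tested) were negative and 870 (5.45%) positive. These shares are the background for the counts at this p given list by list below. The smallest adjusted p was 0.0322, so that the calls lay close to the threshold. The count was 109 by voom of limma with quality weights, which the study used, 665 by DESeq2 and 0 by voom without weights (smallest adjusted p = 0.137). It was also 0 in 9 of the 24 fits that left out 1 mouse (FED-CTRL mouse 15, 16, 41 or 42, CR20-CTRL mouse 5, 47 or 49, CR20-HFD mouse 31 or 32), with smallest adjusted p-values from 0.0569 to 0.072. All 356 negative genes kept their sign in each of the 24 fits, which their choice by a large negative interaction on the same mice favours.

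**Figure D1:**
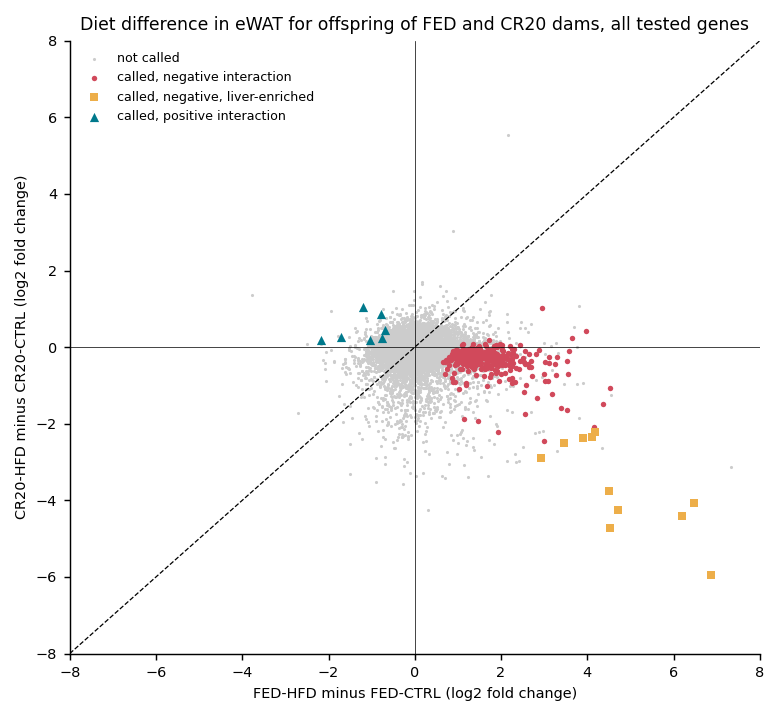
Log2FC on the HFD in offspring of CR20 dams (vertical axis) against that in offspring of FED dams (horizontal axis) for each tested gene, with the dashed line marking equal values. Red points are called negative genes, orange squares those of them that are abundant in liver, and blue triangles the 7 called positive genes. The called negative genes lie to the right of 0 and mostly just under it on the vertical axis.

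The interaction of the called negative genes had its larger part in offspring of FED dams. Their median log2FC on the HFD was 1.54 in these mice and -0.29 in offspring of CR20 dams. All 356 lay above 0 in the first comparison and 338 below 0 in the second, directions that the choice of genes by a negative interaction favours. Alone, FED-HFD minus FED-CTRL called 750 genes (4.7%), among them 313 of the 356. CR20-HFD minus CR20-CTRL called 0 genes (0%) by edgeR. An unadjusted p under 0.05 was found there for 962 genes (6.03%), 32 of them among the 356 (8.99%). Of these 32, 10 were among the 11 called genes that are abundant in liver, and 22 among the other 345 (6.38%). On the HFD, CR20-HFD minus FED-HFD called 877 genes (5.49%), 332 of them among the 356. These comparisons share mice with the interaction and are given side by side as a description.

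FED-HFD had the highest of the 4 group means for 352 of the 356 genes, and CR20-HFD the lowest for 278. The choice by a negative interaction favours both orders. Of all 15964 tested genes, 5340 had the first and 3925 the second. On the CTRL diet the offspring of CR20 dams had a median difference of 0.12 over those of FED dams, in a direction that the choice by the interaction also favours. In 128 of the called negative genes every FED-HFD mouse lay above all 18 other mice, an order that 193 of all tested genes (1.21%) had. The reverse order, with every FED-HFD mouse below the other 18, was found for 30 genes (0.188%) and for 0 of the 7 called positive genes.

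**Figure D2:**
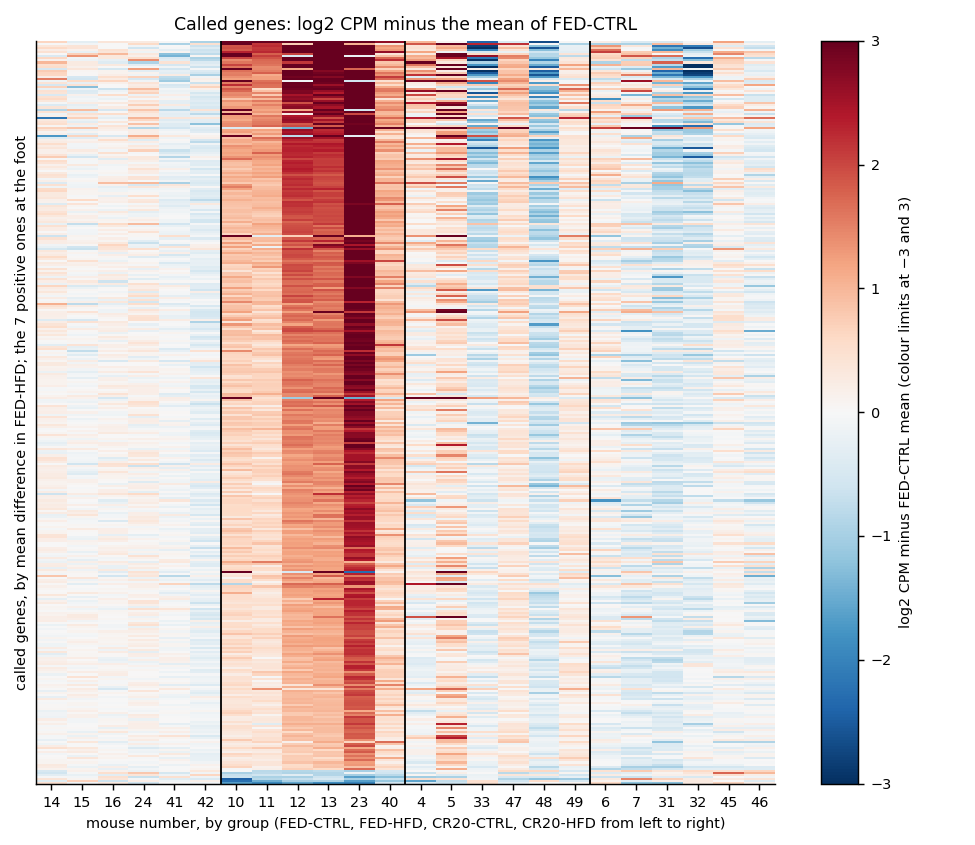
Log2 CPM of each of the 363 called genes (rows) in each mouse (columns, in the order FED-CTRL, FED-HFD, CR20-CTRL, CR20-HFD) minus the gene's FED-CTRL mean, with red for higher and blue for lower values. Mice 12, 13 and 23 are the darkest columns of FED-HFD, and the columns of CR20-HFD are pale or blue.

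The 6 FED-HFD mice differed in how far these genes were raised. The median of the called negative genes over the FED-CTRL mean was 0.66 in mouse 11, 0.73 in mouse 10 and 0.82 in mouse 40, and it was 1.45 in mouse 12, 1.49 in mouse 13 and 2.68 in mouse 23. Every FED-HFD mouse thus lay above every other mouse, as the next value was 0.55 in CR20-CTRL mouse 5. The CR20-CTRL mice were spread from -0.57 (mouse 48) to 0.55, whereas CR20-HFD ran from -0.44 to 0.05 and FED-CTRL from -0.25 to 0.14. These medians come from the genes that were called, and they are given as a description. Without FED-HFD mouse 23, 218 genes were called, 208 of them among the 363, and the median interaction of the 356 genes was -1.34 in place of -1.83.

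Animal numbers fall in 3 ranges (under 20, 20 to 39, and 40 or above), and what the ranges stand for is not stated. FED-HFD had 4, 1 and 1 mice in them, and the only one in the middle range was mouse 23. The median interaction of the 356 genes within the ranges was -1.45, -2.57 and -1.03, a description of genes chosen on the same mice, of which the last values rest on a single FED-HFD mouse each. With the range as a covariate edgeR called 363 genes, 320 of them the same.

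Markers of macrophages were among the called genes in part. Of 14 markers, 5 were called with a negative interaction and 9 had an unadjusted p under 0.05 in that direction. Cd68 (ENSMUSG00000018774, chromosome 11 from 69555037 to 69557067 of GRCm39), a lysosomal membrane protein of macrophages, had a level between 6.10 and 6.71 in FED-CTRL (median 6.44), between 7.45 and 9.90 in FED-HFD (median 8.04), between 5.58 and 6.91 in CR20-CTRL (median 6.76) and between 5.54 and 6.91 in CR20-HFD (median 6.34). All FED-HFD mice lay above the others, and the other 3 groups overlapped. Its interaction was -2.33 (standard error 0.496, edgeR adjusted p = 0.0322), and it was -1.78 (edgeR adjusted p = 0.0223) without mouse 23. Within the ranges of animal numbers it was -1.67, -3.46 and -1.27, of which the second rests on FED-HFD mouse 23 alone and the third on mouse 40 alone.

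Adgre1 (ENSMUSG00000004730, chromosome 17 from 57665573 to 57790527), a surface receptor that marks mouse macrophages, lay between 5.41 and 6.23 in FED-CTRL (median 5.73), between 6.54 and 8.83 in FED-HFD (median 7.14), between 5.14 and 6.32 in CR20-CTRL (median 5.86) and between 5.29 and 5.98 in CR20-HFD (median 5.40). As for Cd68, 6 of 6 FED-HFD mice lay over all others, with an interaction of -2.12 (standard error 0.446, edgeR adjusted p = 0.0322). The called markers also included Csf1r, the receptor for the macrophage growth factor CSF1 (-1.11), and Fcgr1, the high affinity IgG receptor (-1.20). By contrast, the complement genes C1qa, C1qb and C1qc (-0.23, -0.44 and -0.35), which macrophages also make, and the scavenger receptor Cd163 (0.12) were not called.

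Lipid-associated macrophage genes had the most negative median of the lists, -1.86 over 17 genes against -0.02 over all tested genes. This rank is a description, as the lists were chosen with earlier results of these data known. Negative calls numbered 8, and 13 had an unadjusted p under 0.05. The list counts 8 with all mice, 8 without the 3 libraries with liver transcripts and 2 without mouse 23. Gpnmb (ENSMUSG00000029816, chromosome 6 from 49013426 to 49047863) lay between 6.40 and 7.59 in FED-CTRL (median 7.05), between 8.47 and 12.07 in FED-HFD (median 9.34), between 3.91 and 8.17 in CR20-CTRL (median 7.41) and between 4.04 and 7.44 in CR20-HFD (median 6.73). FED-HFD was high throughout and free of overlap, whereas CR20-CTRL mice 33 and 48 and CR20-HFD mice 31 and 32 were the lowest of all. The interaction was -4.00 (standard error 0.96, edgeR adjusted p = 0.0361) and -3.11 (edgeR adjusted p = 0.0615) without mouse 23.

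Trem2 (ENSMUSG00000023992, chromosome 17 from 48653429 to 48661175), a receptor for lipids on macrophages, lay between 4.61 and 5.47 in FED-CTRL (median 5.13), between 6.38 and 9.35 in FED-HFD (median 6.99), between 3.55 and 5.93 in CR20-CTRL (median 5.54) and between 3.37 and 5.82 in CR20-HFD (median 5.32). The FED-HFD mice were above all others, the same 4 mice were lowest, and the interaction was -2.84 (standard error 0.716, edgeR adjusted p = 0.0421). It was -2.10 (edgeR adjusted p = 0.0737), no longer called, without mouse 23. Mmp12, the macrophage elastase, had one of the largest interactions of the well-measured genes, -4.26 (standard error 1.09, edgeR adjusted p = 0.0423), from an HFD log2FC of 3.56 in offspring of FED dams and -0.69 in those of CR20 dams. In mouse 23 it reached a log2 CPM of 12.02, and FED-HFD mouse 40, at 7.54, overlapped with CR20-CTRL. Without mouse 23 the interaction of Mmp12 was -2.86 (edgeR adjusted p = 0.101) and not called. Lipa, the acid lipase that frees cholesterol and fatty acids in lysosomes, had -2.41 (standard error 0.528, edgeR adjusted p = 0.0322). Among the other called members were Lgals3 (-2.40), Itgax (-3.06), Atp6v0d2 (-3.38) and Tyrobp (-1.86). Spp1 was -3.21 and not called (edgeR adjusted p = 0.0879), and Cd36, Lpl and Apoe, which other cells of fat also express, were -0.07, 0.39 and 0.56.

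Genes of resident macrophages gave no calls. Of 11, 0 were called by edgeR, and 0 by DESeq2 and by voom with quality weights. An unadjusted p under 0.05 was found for Mrc1 (-0.97) and, in the other direction, for Cd209f (0.75), and the median was 0.19. Timd4, which binds phosphatidylserine on dying cells, was at 0.37 (edgeR adjusted p = 0.801). Lyve1, a hyaluronan receptor, was at 0.39 (edgeR adjusted p = 0.64). Below 0 lay Mrc1, Folr2 (-0.70, edgeR adjusted p = 0.284) and Pf4 (-0.28, edgeR adjusted p = 0.648), and the other members lay above 0. A test of the difference between these lists and those above was not made.

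**Figure D3:**
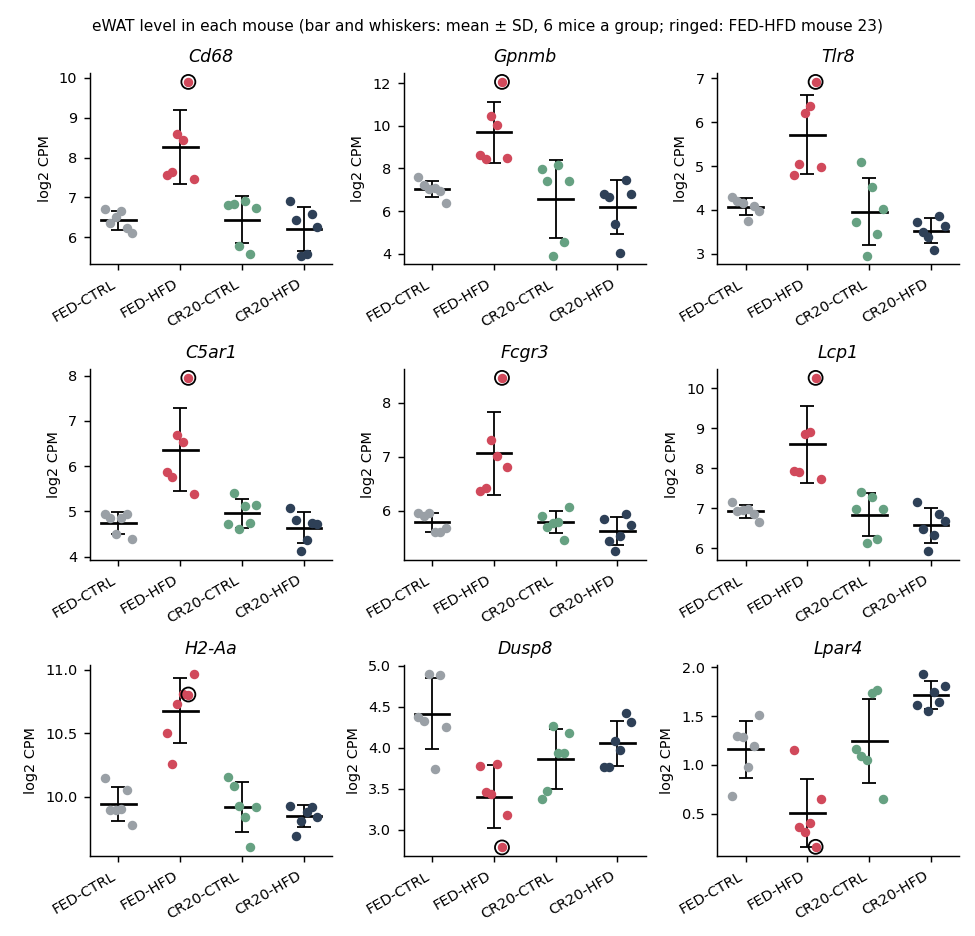
Log2 CPM (vertical axes, each with its own range) of 9 genes in each eWAT library by group, with a bar and whiskers for the mean and SD of 6 mice and a ring around FED-HFD mouse 23. FED-HFD lies above the other groups for Cd68, Gpnmb, Fcgr3, Lcp1 and H2-Aa, and Dusp8 and Lpar4 have their lowest mean there.

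Fc receptor and ITAM signalling was the list with the largest share of calls, 21 of 26 genes, and 25 of 26 had an unadjusted p under 0.05. Its median interaction was -1.65. Over all tested genes 2.23% were called negative. The list was chosen with earlier results of these data known and shares members, such as Trem2 and Tyrobp, with other lists. Its share of calls is therefore a description. Receptors for IgG pass their signal through the adaptor Fcer1g to the kinase Syk. Fcgr3 (ENSMUSG00000059498, chromosome 1 from 170878738 to 170893549) lay between 5.61 and 5.97 in FED-CTRL (median 5.79), between 6.36 and 8.46 in FED-HFD (median 6.91), between 5.46 and 6.08 in CR20-CTRL (median 5.79) and between 5.24 and 5.94 in CR20-HFD (median 5.63). The groups other than FED-HFD overlapped closely, and 6 FED-HFD mice were above all of them, with an interaction of -1.63 (standard error 0.353, edgeR adjusted p = 0.0322). Fcer1g was -1.65, Syk -1.82, and the enzymes and adaptors that act next to Syk, namely Btk, Blnk, Plcg2, Vav1 and Lcp2, lay between -2.75 and -1.17.

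Inhibitory members were called together with activating ones. The phosphatases Ptpn6 (-1.36) and Inpp5d (-1.44), which limit this signal, and the inhibitory receptors Pirb (-1.55), Lilrb4a (-2.07) and Cd300a (-2.38) were among the 21. Pik3ap1, an adaptor for PI3-kinase, had -2.36 (standard error 0.487, edgeR adjusted p = 0.0322), and Pik3r5, a subunit of the PI3-kinase that acts behind chemokine receptors, had -2.30 (standard error 0.506, edgeR adjusted p = 0.0322). Members not called were Fcgr2b, Fcgr4, Lyn, Fgr and Pik3cg. The list held 16 calls without mouse 23 and 17 without the libraries with liver transcripts. Counts of Pira2, Pirb and Lilrb4a may share reads with near-identical copies and are uncertain.

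The receptors for the complement fragments C3a and C5a were called, while the complement proteins of the list were not. Cr2, another complement receptor, was -0.82 and not called (edgeR adjusted p = 0.78). C5ar1 (ENSMUSG00000049130, chromosome 7 from 15980668 to 15993465), the receptor for C5a, lay between 4.38 and 4.94 in FED-CTRL (median 4.86), between 5.38 and 7.95 in FED-HFD (median 6.21), between 4.60 and 5.41 in CR20-CTRL (median 4.93) and between 4.11 and 5.09 in CR20-HFD (median 4.73). FED-HFD mouse 40 overlapped slightly with CR20-CTRL mouse 5, and the remaining FED-HFD mice lay above all others. Its interaction was -2.20 (standard error 0.429, edgeR adjusted p = 0.0322). C3ar1, the receptor for C3a, had -2.35 (standard error 0.485, edgeR adjusted p = 0.0322) and 6 of 6 FED-HFD mice above the rest. These were the 2 calls among 17 complement genes, whose median was -0.23.

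Toll-like receptors and their partners held 6 calls in 19 genes, and 15 had an unadjusted p under 0.05. Tlr8 (ENSMUSG00000040522, chromosome X from 166024184 to 166047325), a receptor for RNA in endosomes, lay between 3.75 and 4.29 in FED-CTRL (median 4.13), between 4.80 and 6.92 in FED-HFD (median 5.62), between 2.96 and 5.10 in CR20-CTRL (median 3.88) and between 3.07 and 3.85 in CR20-HFD (median 3.56). The groups overlapped through CR20-CTRL mouse 5, which exceeded 3 FED-HFD mice, and the other 3 FED-HFD mice lay above every mouse of the other groups. Its interaction was -2.45 (standard error 0.476, edgeR adjusted p = 0.0322). The called members Tlr7 (-1.38) and Tlr13 (-2.51) also read RNA in endosomes, and Unc93b1 (-1.16) carries these receptors there. Cd180, a relative of Tlr4 on the cell surface, had -2.08 (standard error 0.45, edgeR adjusted p = 0.0322), and Tlr1 -1.72. Of 13 C-type lectins of myeloid cells, 5 were called, including Clec7a (-1.84), the receptor for fungal glucan, and Clec12a (-2.23), an inhibitory receptor. Clec4a1, Clec4a2 and Clec4a3 (-1.09, -1.86 and -1.27) are close copies of each other, and their separate counts are uncertain.

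Genes of leukocyte adhesion and movement held 10 calls among 21. Lcp1 (ENSMUSG00000021998, chromosome 14 from 75367978 to 75468289), which bundles actin in leukocytes, lay between 6.66 and 7.15 in FED-CTRL (median 6.94), between 7.72 and 10.26 in FED-HFD (median 8.40), between 6.13 and 7.42 in CR20-CTRL (median 6.98) and between 5.92 and 7.15 in CR20-HFD (median 6.58). All FED-HFD mice were above all others. The interaction was -2.26 (standard error 0.476, edgeR adjusted p = 0.0322), and Nckap1l, a subunit of the complex that starts actin branching in blood cells, had -2.15 (standard error 0.447, edgeR adjusted p = 0.0322). The integrin chains Itgb2 (-2.35) and Itgax (-3.06), the hyaluronan receptor Cd44 (-1.80) and the motor Myo1f (-2.42) were also called, whereas Icam1, a ligand of Itgb2 that endothelium carries, was -0.61 (edgeR adjusted p = 0.274).

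Of the phagocyte NADPH oxidase, which makes superoxide, 4 of 7 genes were called. They included the membrane subunit Cybb (-1.81, standard error 0.436, edgeR adjusted p = 0.0362) and the cytosolic subunits Ncf1 (-2.04) and Ncf4 (-1.84). Cybb lay between 5.44 and 6.26 in FED-CTRL (median 5.82), between 6.31 and 8.54 in FED-HFD (median 6.95), between 4.71 and 6.41 in CR20-CTRL (median 5.91) and between 4.92 and 5.78 in CR20-HFD (median 5.47). FED-HFD was highest, and of its mice only mouse 11 lay below a mouse of another group, CR20-CTRL mouse 5. The count of calls was also 4 without mouse 23.

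Antigen presentation on MHC class II separated a small, tight difference from larger ones. H2-Aa (ENSMUSG00000036594, chromosome 17 from 34493404 to 34506798), the alpha chain, lay between 9.78 and 10.15 in FED-CTRL (median 9.90), between 10.25 and 10.97 in FED-HFD (median 10.77), between 9.60 and 10.15 in CR20-CTRL (median 9.92) and between 9.69 and 9.93 in CR20-HFD (median 9.86). Every FED-HFD mouse lay above all 18 others and mouse 23 was not the highest. The interaction of -0.83 (standard error 0.155, edgeR adjusted p = 0.0322) passed the adjusted p but not the minimum log2FC, so H2-Aa was not called. It overlaps H2-Eb1 on the other strand. Of 12 genes, 10 had an unadjusted p under 0.05 and a negative sign, and the 2 calls were proteins of the lysosome that prepare antigen, Ctss (-2.33, standard error 0.508, edgeR adjusted p = 0.0322) and Ifi30 (-1.59, standard error 0.366, edgeR adjusted p = 0.0327). For the list of 30 lysosome genes, 24 had an unadjusted p under 0.05 and 6 were called, namely Ctss, Lgmn (-1.54), Lipa, Man2b1 (-1.08), Atp6v0d2 and Laptm5 (-1.80).

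Chemokines and their receptors held 3 calls in 29 genes, with 16 at an unadjusted p under 0.05. Ccr2 (ENSMUSG00000049103, chromosome 9 from 123901982 to 123913594), a receptor that guides monocytes into tissue, lay between 5.12 and 5.64 in FED-CTRL (median 5.39), between 5.53 and 6.27 in FED-HFD (median 6.05), between 4.55 and 5.49 in CR20-CTRL (median 5.09) and between 4.39 and 4.97 in CR20-HFD (median 4.82). FED-HFD lay highest, with mouse 11 in the range of FED-CTRL, and CR20-HFD lowest. The interaction was -1.03 (standard error 0.214, edgeR adjusted p = 0.0322), and mouse 13 rather than mouse 23 had the highest level. The others called were the macrophage chemokines Ccl9 (-1.90, standard error 0.502, edgeR adjusted p = 0.0465) and Ccl6 (-1.54). Ccl2, the ligand of Ccr2, was -0.94 (edgeR adjusted p = 0.221), and the count was 0 without mouse 23.

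Of 25 cytokines and their receptors, 5 were called, and 4 of the 5 are receptors. Il7r, the receptor for interleukin 7, lay between 2.68 and 3.68 in FED-CTRL (median 3.14), between 4.54 and 7.08 in FED-HFD (median 5.28), between 1.21 and 3.85 in CR20-CTRL (median 3.51) and between 1.62 and 3.52 in CR20-HFD (median 2.96). FED-HFD was free of overlap, and the interaction was -2.93 (standard error 0.664, edgeR adjusted p = 0.0322). Il1rn, which blocks the interleukin 1 receptor, had -3.40 (standard error 0.899, edgeR adjusted p = 0.0466), and it was -2.35 (edgeR adjusted p = 0.0997) and not called without mouse 23. Csf2ra was -1.64, Il10ra -1.29 and Tnfrsf1b -1.42. Adam8, a membrane protease of myeloid cells, had -3.40 (standard error 0.813, edgeR adjusted p = 0.0352) and was, with Mmp12, the other call among 17 matrix metalloproteinases and related genes.

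Among 14 transcription factors of myeloid cells, 4 were called. Runx1 (ENSMUSG00000022952, chromosome 16 from 92398354 to 92623037), which is needed for blood cell formation, lay between 2.58 and 3.19 in FED-CTRL (median 2.80), between 3.35 and 5.05 in FED-HFD (median 3.95), between 2.30 and 3.52 in CR20-CTRL (median 2.86) and between 2.18 and 2.79 in CR20-HFD (median 2.56). FED-HFD mouse 40 lay below CR20-CTRL mice 5 and 47, and the remaining 5 exceeded all mice of the other groups. The interaction was -1.77 (standard error 0.342, edgeR adjusted p = 0.0322). They also included Spi1 (-1.87), which encodes PU.1, the factor that myeloid cells need to form, and Irf5 (-1.68, standard error 0.365, edgeR adjusted p = 0.0322). The list also had 4 calls without mouse 23 and 4 by voom with quality weights, with Runx1 and Irf5 in both.

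The called gene with the smallest p was Ipcef1 (ENSMUSG00000064065, chromosome 10 from 6835774 to 7002478), which encodes a partner of cytohesin exchange factors. It lay between -0.25 and 0.32 in FED-CTRL (median 0.14), between 0.91 and 2.83 in FED-HFD (median 1.46), between 0.47 and 1.00 in CR20-CTRL (median 0.78) and between -0.99 and 0.49 in CR20-HFD (median 0.22). CR20-CTRL was higher than FED-CTRL without overlap, FED-HFD was highest with mouse 11 in the range of CR20-CTRL, and the interaction was -2.48 (standard error 0.416, edgeR adjusted p = 0.0322). Its HFD log2FC was 1.77 in offspring of FED dams and -0.71 in those of CR20 dams, of which the second did not pass its own test (edgeR adjusted p = 0.82). Other genes with a small p were Dhrs9, a retinol dehydrogenase, with -2.99 (standard error 0.572, edgeR adjusted p = 0.0322), and Slc15a3, a lysosomal peptide transporter, with -2.31 (standard error 0.463, edgeR adjusted p = 0.0322). Both had all 6 FED-HFD mice above the other 18.

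Further genes chosen by their small p were Ptafr, the receptor for platelet activating factor (-2.06), Mpeg1, a pore-forming protein of phagocytes (-2.41), Rhoh, a small GTPase of blood cells (-1.54), Ptpro, a receptor phosphatase (-1.64), Rassf4 (-1.66), Atp8b4, a phospholipid flippase (-2.39), and 1700071M16Rik (-4.29). For Mpeg1, the level lay between 7.36 and 8.03 in FED-CTRL (median 7.82), between 8.74 and 11.02 in FED-HFD (median 9.33), between 6.63 and 8.47 in CR20-CTRL (median 7.84) and between 7.05 and 7.84 in CR20-HFD (median 7.28). All FED-HFD mice exceeded the rest. 1700071M16Rik was near the limit of detection outside FED-HFD, with a median of -1.76 in FED-CTRL, -1.26 in CR20-CTRL and -2.48 in CR20-HFD. It overlaps Pla2g7 on the other strand, and Ipcef1, Runx1, Slc15a3 and Rassf4 also overlap a tested gene there. The strand setting of the counting is not stated, so reads of such pairs may not be separated. Among the largest interactions, with larger standard errors, were those of Sel1l3 (-5.00, standard error 1.13, edgeR adjusted p = 0.0322) and Rnf128 (-5.15, standard error 1.27, edgeR adjusted p = 0.0381), in each of which only mouse 23 lay above all others. Without it, Rnf128 had -3.79 (edgeR adjusted p = 0.0826) and was not called.

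Promoters were looked at for the letters GAGGAAGT, on either strand, a sequence of the type that PU.1 binds. RefSeq promoters of GRCm38.p6, each 300 bases long with 250 before and 50 after a gene's start, were matched by symbol for 274 of the 356 called negative genes, and 29 (10.6%) held the letters. Of all promoters 3.28% did, and of those of tested genes 3.14%. For the 7 called positive genes, 5 promoters were matched, and 0 held the letters. A match describes the sequence and is not a site known to be bound. The 3 promoters shown are examples that held the letters, from called negative genes chosen by the rules for naming genes. Other called genes described here may hold the letters too and are not shown. The letters are in capitals, in the forward or the reverse orientation, and all other bases are in lower case.
Atp8b4 (chr2:126491504-126491803, minus strand): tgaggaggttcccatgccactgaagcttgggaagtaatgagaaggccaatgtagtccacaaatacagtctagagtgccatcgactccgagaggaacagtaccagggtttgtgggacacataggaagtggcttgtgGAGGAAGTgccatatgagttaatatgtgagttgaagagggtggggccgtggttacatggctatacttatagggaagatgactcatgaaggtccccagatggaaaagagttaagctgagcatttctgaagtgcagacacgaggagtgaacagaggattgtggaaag
Ctss (chr3:95526536-95526835, plus strand): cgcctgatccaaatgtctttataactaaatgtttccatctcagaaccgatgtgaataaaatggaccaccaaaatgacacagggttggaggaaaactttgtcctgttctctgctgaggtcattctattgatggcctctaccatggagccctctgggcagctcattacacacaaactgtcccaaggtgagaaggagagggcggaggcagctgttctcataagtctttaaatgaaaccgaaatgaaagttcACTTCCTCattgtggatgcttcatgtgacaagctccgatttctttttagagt
Mmp12 (chr9:7344147-7344446, plus strand): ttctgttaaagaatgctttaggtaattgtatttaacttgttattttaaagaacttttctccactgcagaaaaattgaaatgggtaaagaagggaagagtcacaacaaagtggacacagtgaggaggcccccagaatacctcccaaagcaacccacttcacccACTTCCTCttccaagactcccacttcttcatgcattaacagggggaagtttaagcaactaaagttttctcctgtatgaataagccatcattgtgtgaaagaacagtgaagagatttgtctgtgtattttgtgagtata
Counted from the start of the gene, the first of the letters is at -115 in Atp8b4, -88 in Mmp12 and -2 in Ctss.

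**Figure D4:**
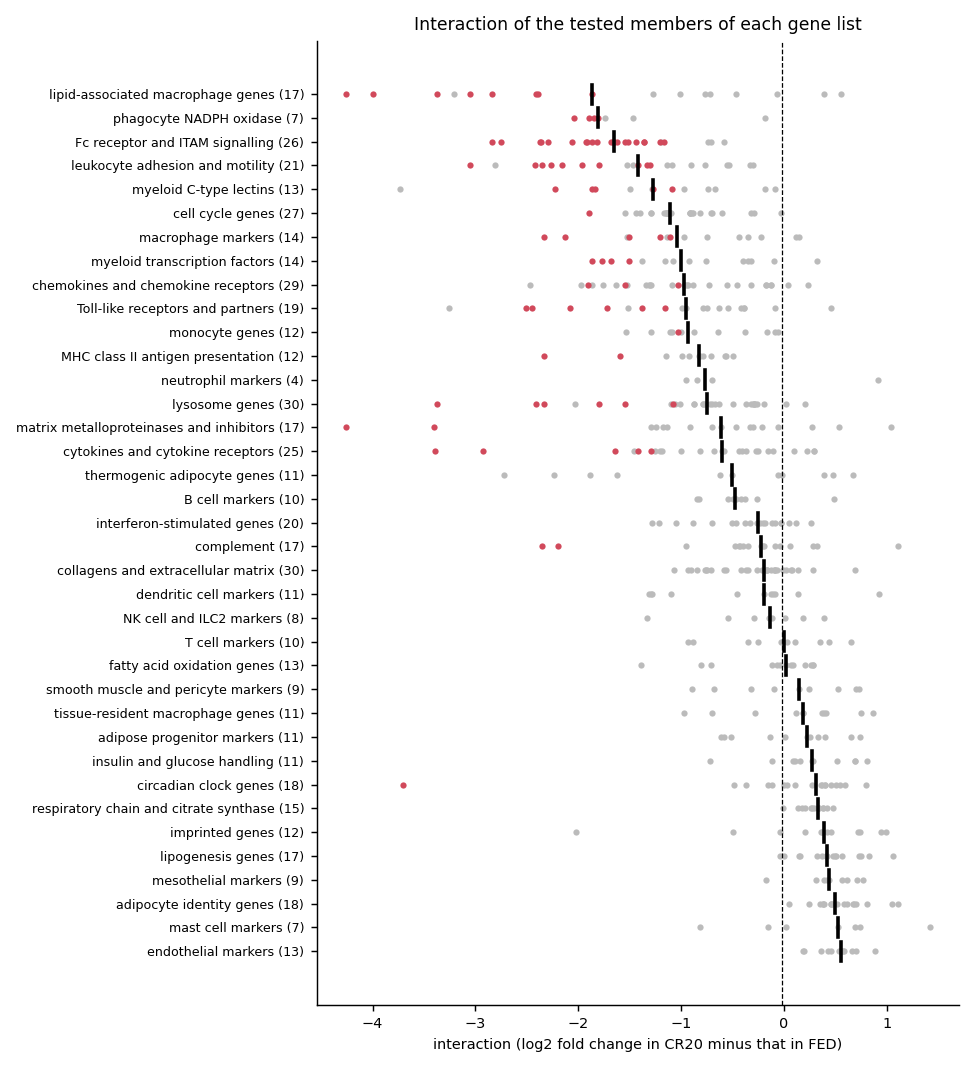
Interaction (log2FC, horizontal axis) of each tested member of the gene lists, with the number tested in brackets, red for called negative and grey for not called. Black ticks are list medians, and the dashed line is the median of all tested genes, -0.02. Lists of myeloid receptors and signalling lie at the top, with medians down to -1.86, and lists of adipocytes, mast cells and endothelium at the foot, with medians up to 0.55.

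Without mouse 23 the calls numbered 3 for macrophage markers, 6 for adhesion, 3 for Toll-like receptors, 2 for lectins, 4 for lysosome genes and 3 for cytokines. Without the libraries with liver transcripts they numbered 4, 8, 4, 5, 5 and 4. By voom with quality weights, they numbered 3, 4, 1, 0, 3 and 0 for the same lists, 1 for lipid-associated macrophage genes, 11 for Fc receptor and ITAM signalling, 1 each for the NADPH oxidase and MHC class II, 2 for complement and for cell cycle genes, and 0 for chemokines, metalloproteinases, monocyte genes and clock genes. Each list had 0 calls without the libraries with Adam7 counts, the alternative in which no gene was called.

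Genes of cell division had a negative median, -1.11 over 27 genes, 20 of which had an unadjusted p under 0.05, yet only Bub1, a checkpoint kinase, was called (-1.90, standard error 0.506, edgeR adjusted p = 0.0477). Mcm5, part of the helicase that opens DNA for replication, lay between 2.81 and 3.67 in FED-CTRL (median 3.17), between 3.88 and 5.46 in FED-HFD (median 4.21), between 2.75 and 3.77 in CR20-CTRL (median 3.34) and between 3.13 and 3.58 in CR20-HFD (median 3.41). All 6 FED-HFD mice were above all others, but its interaction of -1.15 did not pass (edgeR adjusted p = 0.0657). Bub1 was at 0.70 to 3.10 in FED-HFD and at -0.72 to 0.95 in the other mice. Mouse 23 had the highest summed CPM of the 27 genes, 850 against a FED-HFD median of 338, and without it Bub1 had -1.44 (edgeR adjusted p = 0.0885) and 0 genes of the list were called.

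Other leukocytes gave 0 calls in edgeR and 0 by voom with quality weights, and DESeq2 called 1 dendritic cell gene and 1 of NK cells and ILC2. None was made by edgeR among 10 tested T cell markers, 10 B cell markers, 8 of NK cells and ILC2, 7 of mast cells, 4 of neutrophils and 11 of dendritic cells, and at an unadjusted p under 0.05 there were 1, 0, 1, 0, 0 and 5 of them. Cd3g was 0.66, Cd4 -0.88 and Ighm, the heavy chain of IgM, 0.49. Among dendritic cell markers, Flt3 was -1.09 and Itgae 0.92, in opposite directions. The monocyte list held Ccr2 as its only call in 12 genes. Of 20 interferon-stimulated genes, 0 were called by edgeR and by DESeq2, and Oas1a (-1.21) and Mx1 (-1.05) had an unadjusted p under 0.05. Such a p was found for 18.2% of all tested genes.

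Adipocyte genes had interactions above 0 that did not pass the test. The median interaction of 18 adipocyte identity genes was 0.49 and all 18 were above 0, with 0 calls in edgeR, DESeq2 and voom with quality weights and 2 at an unadjusted p under 0.05. These 2 were Slc2a4, the insulin-responsive glucose transporter, and the adipokine Retn (1.05). Of all tested genes, 5.45% were positive at this p. Slc2a4 lay between 8.01 and 8.35 in FED-CTRL (median 8.07), between 4.95 and 7.61 in FED-HFD (median 7.38), between 6.95 and 8.22 in CR20-CTRL (median 8.14) and between 7.80 and 7.97 in CR20-HFD (median 7.83). FED-HFD mouse 23 was the lowest of all and CR20-CTRL mouse 5 the next, and the other FED-HFD mice lay below the other mice of the 3 remaining groups. The interaction was 0.81 (edgeR adjusted p = 0.25). Plin1, which coats the lipid droplet, was 0.58, and Adipoq 0.68.

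Genes of energy use gave no calls either. Lipogenesis genes had a median of 0.42 over 17 genes, with Mlxipl, a glucose-sensing transcription factor, at 0.73. Genes of the respiratory chain with citrate synthase had 0.33 over 15, of which 5 had an unadjusted p under 0.05. Of 11 genes of insulin and glucose handling, 4 had one, among them Akt2 (0.52) and Hk2 (0.69), and all 4 were positive. Fatty acid oxidation genes centred on 0.02 over 13, where 3 negative ones, among them Cpt1a and Pdk4, had an unadjusted p under 0.05. Over all tested genes the shares at this p were 12.7% negative and 5.45% positive. Thermogenic genes had a median of -0.50 over 11, with Ucp1 at -2.72 (edgeR adjusted p = 0.277) and Otop1 at -2.24. Ucp1 was near the limit of detection in FED-CTRL (median log2 CPM -2.50). Endothelial markers had the highest median, 0.55 over 13 genes, with Emcn at 0.70 (edgeR adjusted p = 0.21) and the lipase anchor Gpihbp1 at 0.67. In Emcn, 4 FED-HFD mice lay below all 18 others. Collagens and other matrix genes had a median of -0.20 over 30 genes, mesothelial markers 0.44 over 9, adipose progenitor markers 0.22 over 11, and markers of smooth muscle and pericytes 0.15 over 9. No gene of these lists was called by edgeR, DESeq2 or voom with quality weights, and in the last 4 lists 4, 0, 3 and 2 genes had an unadjusted p under 0.05. FED-HFD mouse 23, with the largest sum of macrophage markers, was the lowest mouse for Slc2a4 and Emcn, and the part of its cell mix in these values was not tested.

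Of 18 circadian clock genes only Npas2, a partner of Bmal1, was called, with -3.71 (standard error 0.98, edgeR adjusted p = 0.0466). Its log2 CPM was 0.16 to 3.12 in FED-HFD and up to 2.98 in CR20-CTRL mouse 5, so the groups overlapped. It was not called without mouse 23 or without the libraries with liver transcripts.

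The 7 called positive genes had their lowest group mean in FED-HFD. Without mouse 23 only Dusp8 and Ccn1 of the 7 were called, 3 were called without the libraries with liver transcripts, and 3 by voom with quality weights. Dusp8 (ENSMUSG00000037887, chromosome 7 from 141633226 to 141649580), a phosphatase of stress kinases, lay between 3.74 and 4.90 in FED-CTRL (median 4.36), between 2.79 and 3.80 in FED-HFD (median 3.45), between 3.38 and 4.27 in CR20-CTRL (median 3.94) and between 3.76 and 4.42 in CR20-HFD (median 4.03). FED-HFD was low, with 2 of its mice below all others, and the interaction was 1.21 (standard error 0.285, edgeR adjusted p = 0.0343). Lpar4 (ENSMUSG00000049929, chromosome X from 105964206 to 105977506), a receptor for lysophosphatidic acid, lay between 0.68 and 1.51 in FED-CTRL (median 1.24), between 0.16 and 1.15 in FED-HFD (median 0.38), between 0.66 and 1.77 in CR20-CTRL (median 1.13) and between 1.55 and 1.93 in CR20-HFD (median 1.70). FED-HFD was lowest, with some overlap with FED-CTRL, and CR20-HFD lay above all FED-HFD and FED-CTRL mice. The interaction was 1.12 (standard error 0.298, edgeR adjusted p = 0.0466), from an HFD log2FC of -0.69 and 0.43, and it was 1.07 (edgeR adjusted p = 0.0781) without mouse 23.

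Ccn1, a matrix protein that vessels and fibroblasts secrete, had 1.64 (standard error 0.445, edgeR adjusted p = 0.051) and ran up to 7.40 in CR20-HFD mouse 45. The remaining 4 were long noncoding RNAs, Bvht (1.00), 5430425K12Rik (1.96), Oxct1as (2.23) and Gm40828 (2.34). Without mouse 23 their adjusted p in edgeR lay between 0.0694 and 0.0884. For Bvht 5 and for Gm40828 5 of the 6 FED-HFD mice lay below all other mice. Oxct1as lies opposite to Oxct1, Gm40828 to Zkscan4 and Ccn1 to Gm17501, so reads of the partner genes may have been counted. Several of these genes were near the limit of detection, with a median log2 CPM of -2.48 for Gm40828 and -1.57 for Oxct1as in FED-HFD.

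A group of the called negative genes encodes plasma proteins of the liver. Of 46 liver-abundant genes tested, 11 were called, with interactions from -12.81 (Apoa2) to -5.80 (Itih2), and among them were Ttr (-10.60), Apoa1 (-10.56) and Mup3 (-8.96), of which Mup3 has near-identical copies. Apoa2, an apolipoprotein of HDL, lay between -3.22 and -1.69 in FED-CTRL (median -2.28), between -1.95 and 6.15 in FED-HFD (median -0.68), between -3.22 and 5.60 in CR20-CTRL (median -0.24) and between -3.22 and -1.31 in CR20-HFD (median -2.11). It was high in FED-HFD mouse 10, in CR20-CTRL mouse 5 and, less so, in FED-HFD mouse 13, and low in most others. These are the 3 libraries with the largest sums of liver transcripts. Without them 0 liver-abundant genes were called, Apoa2 had -3.60 (edgeR adjusted p = 0.0998), and the sign of Serpina3k was reversed (0.22).

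Most other calls were also made without these 3 libraries. The count of all calls was 284, with 264 among the 363, and Cd68 had -2.48 (edgeR adjusted p = 0.0449). Ptgds, a prostaglandin synthase, lay between -1.12 and 0.55 in FED-CTRL (median -0.32), between -1.72 and 5.97 in FED-HFD (median 1.76), between -0.84 and 5.43 in CR20-CTRL (median 2.43) and between -0.21 and 3.20 in CR20-HFD (median 1.41). It was highest in FED-HFD mouse 13 and in CR20-CTRL mice 4 and 5, which had most Adam7 counts, and the interaction was -6.23 (standard error 1.59, edgeR adjusted p = 0.0422). Without the libraries with liver transcripts it was -4.47 (edgeR adjusted p = 0.109) and not called. Without the 3 libraries with Adam7 counts, all of them from CR20 offspring, 0 genes were called (smallest adjusted p = 0.139, 2176 genes at an unadjusted p under 0.05), and the median of the 356 genes was -1.73. The 15 epididymis and testis markers were too low to be tested. A loss of calls through fewer mice and one through the content of these libraries cannot be told apart here.

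The study names 8 genes for eWAT, chosen on these samples, so their direction is not independent evidence. Of these, 7 were called with a negative interaction, among them Mmp12, Cd68, Il7r, Il1rn and Cd44, described above. Without mouse 23, Mmp12, Il1rn and Tnfaip2 were not called, which left 4, and by voom with quality weights 2 were called, Cd68 and Cd44. Cd84, a receptor of the SLAM family, had -2.53 (standard error 0.608, edgeR adjusted p = 0.0363), and Tnfaip2 had -1.62 (standard error 0.443, edgeR adjusted p = 0.0534), the largest adjusted p of the 7. The imprinted gene Peg3 lay between 6.37 and 7.81 in FED-CTRL (median 7.32), between 6.20 and 8.18 in FED-HFD (median 7.68), between 6.03 and 7.97 in CR20-CTRL (median 6.91) and between 7.45 and 8.63 in CR20-HFD (median 7.94). Groups overlapped, and the interaction of 0.72 did not pass (standard error 0.451, edgeR adjusted p = 0.394). The study reports Peg3 for another comparison, CR20-HFD against CR20-CTRL, by a p without adjustment and by qRT-PCR. The mean levels of these 2 groups were 7.98 and 6.82. Among 12 imprinted genes tested, 0 were called by edgeR and by DESeq2, and Plagl1 (0.99) had an unadjusted p under 0.05. Over all tested genes 18.2% had such a p.

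Liver and pituitary of the same mice gave 0 calls for the same contrast. In liver, 0 of 13787 tested genes were called (smallest adjusted p = 0.999), and 242 (1.76%) had an unadjusted p under 0.05. In the pituitary, 0 of 16657 were called (smallest adjusted p = 0.314), with 1833 (11%) at an unadjusted p under 0.05. DESeq2 and voom with quality weights also called 0 in both, though in the pituitary the smallest adjusted p was 0.0136 by DESeq2, at a log2FC under the minimum, and 0.0715 by voom with quality weights, with 1897 and 2817 genes at an unadjusted p under 0.05. The called negative genes of eWAT had a median interaction of 0.03 over the 302 tested in liver and of -0.04 over the 304 tested in the pituitary. The difference between tissues was not itself tested.

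**Figure D5:**
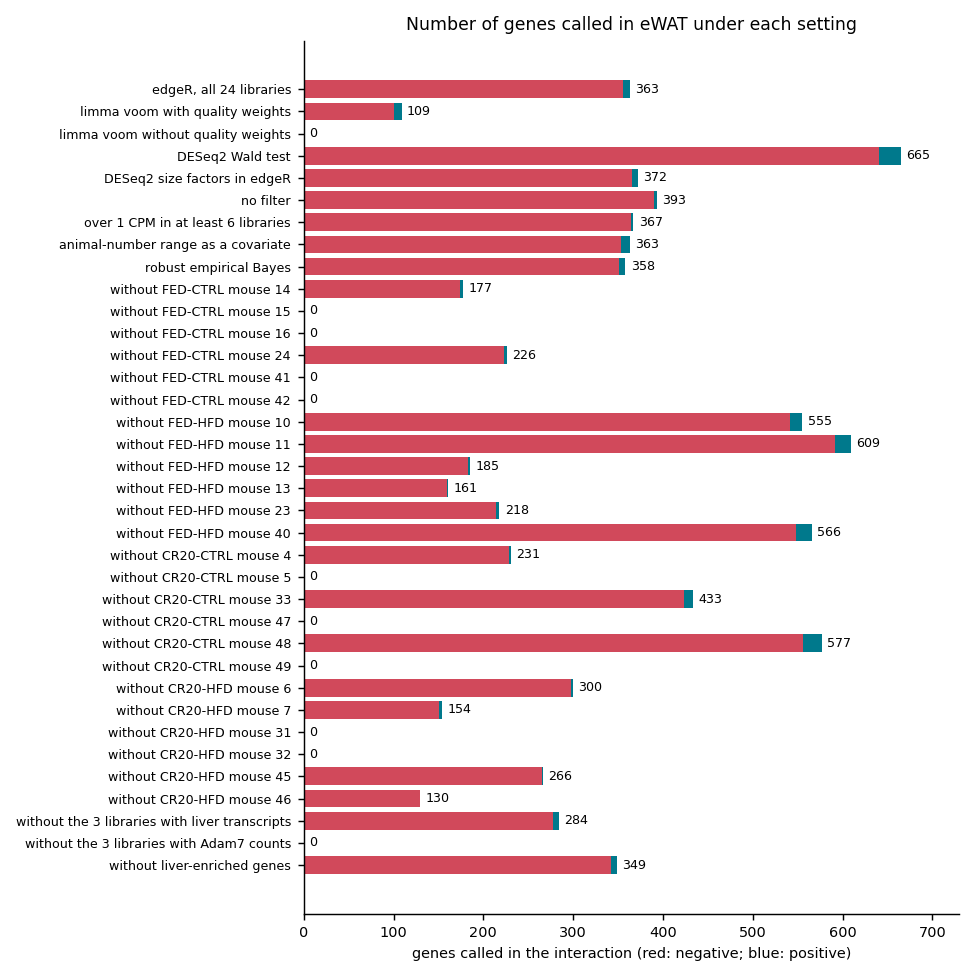
Number of genes called in the eWAT interaction (horizontal axis) in all 24 libraries and under each other setting, with red for negative and blue for positive interactions. The bars end between 0 and 665, and every setting with calls has mostly negative ones.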

How the data were processed

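RNA from frozen pieces of eWAT and liver and from an aliquot of pituitary homogenate of the same 24 mice was sequenced with a stranded TruSeq kit. According to the study's methods and the submitters' processing notes, the authors checked reads with FastQC, trimmed them with Trimmomatic, aligned them with STAR to GRCm39 and counted them per gene with featureCounts of Subread. The deposited values are raw counts per gene and library, not normalized. The strand setting of the counting is not given in the sources used here. Genes were named and placed with a GENCODE annotation of the same build, which matched 54749 of 55416 counted genes, and 667 had no match.

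From these counts the 4 eWAT groups were fitted with edgeR 4.0.16 in R 4.3.3 (filterByExpr, TMM, glmQLFit and glmQLFTest), with the interaction as a contrast and Benjamini-Hochberg adjustment over all tested genes. The call thresholds were those of the study's volcano plots. Standard errors are the absolute log2FC divided by the square root of F. Levels are TMM-scaled log2 CPM with a prior count of 2. The fit was tested on simulated counts, and recovered changes put into FED-HFD for well-measured genes. The simulation held no mouse that stood apart in many genes and no library with liver or epididymal transcripts. It therefore does not show how the fit handles these. Liver and pituitary were fitted in the same way. Alternatives were limma 3.58.1 voom with and without quality weights, DESeq2 1.42.0, other size factors, filters and thresholds, the range of animal numbers as a covariate, and each mouse left out in turn.

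The gene lists, like the comparison itself, were chosen with earlier results of these data known, and they share members. Named genes were all called positive ones, the 15 negative ones with the smallest p, the 5 largest with a mean log2 CPM of at least 1, the 10 with the smallest p over the fits without 1 mouse, the 8 named by the study and the 3 members of each list with the smallest p. Other list members were named after their values were seen, mostly to account for all calls of a list. The lists were of macrophages, lipid-associated and resident macrophages, monocytes, dendritic, T, B, NK and ILC2, mast and neutrophil cells, chemokines, cytokines, Toll-like receptors, Fc receptor and ITAM signalling, lectins, adhesion, NADPH oxidase, MHC class II, lysosome, metalloproteinases, complement, interferon response, myeloid transcription factors, adipocyte identity, lipogenesis, fatty acid oxidation, thermogenesis, insulin and glucose handling, respiratory chain, matrix, progenitors, endothelium, smooth muscle, mesothelium, epididymis and testis, cell cycle, clock and imprinted genes. Liver-abundant genes had a mean of at least 500 CPM in the liver libraries and at least 100-fold the eWAT median. Of 132 genes named by the rule, 32 overlapped a tested gene on the opposite strand and 1 on the same strand. Values of a few list members are not reported here.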

Additional observations from a re-analysis of the deposited data

Results flagged for a closer look

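The 363 calls of the interaction are themselves a difference between the diet responses of offspring of FED and CR20 dams, and their test is given above. Beyond these, a mouse lay far from the other 5 of its group, by Dixon's test at the 95% level, in 43 of 528 combinations of a named gene and a group (8.14%). The genes were chosen by their results and vary together in the same mice, so this share cannot be set against a chance rate. All values are log2 CPM.

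FED-HFD mouse 23 accounted for 22 of the 43. It was high for the macrophage genes Mrc1 (8.325), Folr2 (4.787), Ifi30 (8.557), Laptm5 (9.325), Mmp19 (8.593) and Irf5 (7.45) and for the cell division genes Mcm5 (5.458) and Birc5 (3.991). It was low for the adipocyte and metabolic genes Slc2a4 (4.95), Plin1 (9.031), Mlxipl (4.873), Dgat2 (10), Dgat1 (6.7), Akt2 (7.772), Hk2 (5.496) and Sdha (7.848). The endothelial genes Emcn (2.581), Gpihbp1 (4.578) and Esam (4.672), the clock genes Cry2 (4.982) and Tef (6.37) and the integrin Itgae (1.936) were low in it as well.

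CR20-CTRL mouse 5 was high for the liver-abundant genes Apoa2 (5.602) and Serpina3k (5.29), for Hdc (5.478), which makes histamine, and for the progenitor receptor Pdgfra (6.56). It was low for Slc2a4 (6.949), Retn (8.085), Dgat2 (10.6) and Dgat1 (7.058). CR20-CTRL mouse 48 was low for Tnfaip2 (4.092), Mx1 (1.044) and the matrix protein Lum (4.882).

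FED-CTRL mouse 24 was high for Ighm (9.509) and low for Cd3g (0.4009) and Tef (7.253), and FED-CTRL mouse 16 was low for Tnfrsf1b (5.618). CR20-HFD mouse 45 was high for Ighm (9.159), CR20-HFD mouse 31 was low for Ifi30 (5.486) and Ipcef1 (-0.992), and CR20-HFD mouse 6 was low for the mesothelial marker Msln (3.905). Among the called positive genes, FED-HFD mouse 10 was low for Oxct1as (-3.223) and FED-HFD mouse 40 high for Gm40828 (-1.284). Why these mice stood apart was not tested.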

How the results depend on the processing

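The count of eWAT calls, 363, depended on the test and on single mice. It was 109 by voom with quality weights (103 of them among the 363), 0 by voom without weights and 665 by DESeq2 (362 among the 363). Leaving out each mouse in turn gave 0 to 609 calls, the highest without FED-HFD mouse 11, and 0 in the 9 fits listed in the report. Without the 3 libraries with Adam7 counts, an alternative chosen after seeing the data, it was 0. Other settings gave 284 (without the 3 libraries with liver transcripts) and 349 (without liver-abundant genes), both also chosen after seeing the data, and 372 with DESeq2 size factors, 393 without a filter, 367 with more than 1 CPM in at least 6 libraries, 363 with the range of animal numbers, 358 with robust empirical Bayes, 387 with a minimum log2FC of 0.58 and 365 at an adjusted p under 0.05 with no minimum. The cause of these changes was not tested. All 356 negative genes kept their sign with each mouse left out and under every other test, and 354 did without the libraries with liver transcripts. Their choice by a large negative interaction on the same mice favours this. In liver and pituitary the count was 0 in every setting. Signs reversed for Serpina3k (0.22 without the libraries with liver transcripts), for Foxp3, which was not called (0.20 by voom with quality weights), and for Hdc, not called either (0.11 by voom with quality weights, 0.0781 without the libraries with liver transcripts and 0.38 without those with Adam7 counts, and from -1.01 to 0.11 with a mouse left out, above 0 without CR20-CTRL mouse 5). No paired analysis was possible because the groups hold different mice, and the labels tie no mouse to a dam or litter. Libraries of 11589675 to 22364963 counts limit genes near 0.134 to 0.259 CPM, such as Gm40828 and Oxct1as.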
